A study of Mus musculus with 4 samples.

Results

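The 39 genes described here are immediate early genes (30) and heat shock genes (9), chosen by name from 32285 genes measured. Immediate early genes are switched on within minutes by growth factors, calcium, stretch or injury without any new protein being made, and most encode transcription factors (the Fos, Jun, Egr, Nr4a and Klf families) or proteins that end the signal (Dusp1, Zfp36, Socs3). Heat shock genes encode chaperones, and many are driven by heat shock factor 1 when proteins unfold. Both programs are known to respond while a tissue is being digested into single cells at body temperature, so their level in a cell reports the state of the animal and the handling of the tissue together. Tissue that had not been dissociated was not analysed here.

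The cells came from mouse retinal pigment epithelium (RPE), the pigmented layer behind the photoreceptors, and choroid, the vascular layer beneath it. Droplet single-cell libraries (10x Genomics), which count unique molecular identifiers (UMIs) at the ends of transcripts, were made from wild-type mice and from Vldlr-/- mice, which lack the very low density lipoprotein receptor, at 1 and 2 months of age. Each of these 4 groups was 1 library, and the sources used here do not say how many animals it pooled. Per the labels' protocols, tissue stood in collagenase and dispase at 37 °C for 15 min and in trypsin at 37 °C for 5 min.

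With 1 library per group there is no replicate error and no test. Levels are CPM, the UMIs of a gene per 1000000 UMIs of a cell class in a library, ratios are on the log2 scale, and brackets hold exact 95% intervals that cover counting error only. Values in a series of 4 run from the younger to the older age, with the wild type before the knockout at each, and a pair at 1 age gives the wild type first.

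After barcodes with under 300 genes or over 30% mitochondrial UMIs were left out, 1549, 1819, 2047 and 1140 barcodes remained, with median depths of 6036, 5084, 8021 and 9029 UMIs. One barcode (1 of 1819 and 1 of 1140) occurred in both knockout libraries. Vldlr, the targeted gene, was at 129, 10.7, 177 and 27.0 CPM in RPE-like cells, so both knockout libraries were lower. In rod-like cells at 1 month it was at 319 and 210 CPM. The sources used here do not say which part of Vldlr was deleted. Clusters were named from marker genes, with the 39 genes kept out of the clustering, and 6 of 31 clusters stayed unnamed (281, 334, 181 and 70 cells of the 4 libraries). RPE-like cells numbered 237, 165, 1457 and 606, fibroblast-like cells 273, 403, 126 and 165, and a class was described in a library where it had at least 30 cells. Xist and Ddx3y, which mark female and male cells, were both detected in RPE-like and fibroblast-like cells of all 4 libraries.

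Promoters that hold a known element of either program are shown first, since both gene sets are named for how they are switched on. They were taken from the RefSeq promoter table (GRCm38.p6), 5′ to 3′ on the strand of the gene, with the element in capitals. The window ran from 250 bases before a start site to 50 after, and 31 of the 39 genes matched the table. Fosl1, Egr1, Egr3, Ier2, Myc, Cebpd, Hsp90aa1 and Hspa8 did not, so the promoter counts leave them out. Dusp1, a phosphatase that switches off MAP kinases, holds a cyclic AMP response element (chr17:26508520-26508722, minus strand). Egr2, a zinc finger factor, holds a serum response element core, the CArG box bound by serum response factor (chr10:67537619-67537868, plus strand), as does Zfp36, which promotes decay of unstable mRNAs (chr7:28379272-28379291, minus strand, within an annotated exon). Hspa1a (chr17:34972157-34972406, minus strand) and Hspa1b (chr17:34959239-34959488, minus strand), the stress-inducible Hsp70 genes, hold a pair of inverted heat shock units, and Hspe1, the mitochondrial co-chaperonin, holds a longer array (chr1:55088054-55088081, plus strand, within an annotated exon).
Dusp1: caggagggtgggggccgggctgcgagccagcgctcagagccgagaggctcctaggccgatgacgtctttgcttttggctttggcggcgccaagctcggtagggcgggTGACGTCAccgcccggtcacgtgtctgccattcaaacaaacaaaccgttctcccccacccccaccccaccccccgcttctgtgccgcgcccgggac
Egr2: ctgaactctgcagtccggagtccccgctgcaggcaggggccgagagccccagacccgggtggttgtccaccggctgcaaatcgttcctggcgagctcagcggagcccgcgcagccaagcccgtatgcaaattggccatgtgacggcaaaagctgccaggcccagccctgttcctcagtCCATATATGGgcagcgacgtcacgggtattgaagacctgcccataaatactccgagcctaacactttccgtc
Zfp36: ccgccCCATAAAAGGagaaa
Hspa1a: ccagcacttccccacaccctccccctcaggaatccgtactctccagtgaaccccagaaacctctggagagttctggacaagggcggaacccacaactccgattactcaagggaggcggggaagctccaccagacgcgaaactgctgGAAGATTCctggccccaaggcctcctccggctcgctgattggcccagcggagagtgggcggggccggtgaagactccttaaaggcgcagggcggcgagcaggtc
Hspa1b: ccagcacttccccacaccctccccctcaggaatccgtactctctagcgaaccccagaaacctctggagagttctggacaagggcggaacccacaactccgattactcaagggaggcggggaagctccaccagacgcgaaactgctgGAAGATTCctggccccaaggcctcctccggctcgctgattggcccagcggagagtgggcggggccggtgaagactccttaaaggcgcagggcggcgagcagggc
Hspe1: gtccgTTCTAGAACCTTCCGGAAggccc

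The 250 bases before Hspa1a and before Hspa1b were identical at 247 positions (98.8%), and the genes are near copies, so how their reads were shared between them is uncertain. On either strand, a CArG box lay in the promoters of 2 of 24 immediate early genes and of 1.81% of all 27025 genes in the table (any of a gene's promoters counted). The cyclic AMP response element TGACGTCA lay in 3 of 24 (Dusp1, Btg2 and Maff), against 2.03% of all genes, and the AP-1 site TGACTCA in 0 of 24, against 5.95%. The array of 3 alternating heat shock units lay in 3 of 7 heat shock genes (Hsph1, Hspe1 and Hspd1), against 0.662% of all genes. Its 2-unit form (GAANNTTC or TTCNNGAA, which the 3-unit array contains) lay in 6 of 7 heat shock genes and 3 of 24 immediate early genes, against 16.97%. Hspe1 (from 55088132, plus strand) and Hspd1 (up to 55088243, minus strand) overlap head to head on chromosome 1, so their matches may not be independent. In the 3′ untranslated regions, the destabilising nonamer TTATTTATT was found in 6 of 30 immediate early genes, in 0 of 9 heat shock genes and in 6.99% of 20870 protein-coding genes. These matches describe letters, not bound sites.

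Immediate early RNA differed more between cell classes than between genotypes. Summed over the 30 genes, RPE-like cells held 503 (448 to 562), 330 (275 to 394), 224 (217 to 232) and 293 (282 to 306) CPM, the lowest in every library of the named classes with at least 30 cells. Fibroblast-like cells, the collagen-making cells of the choroid and sclera, held 24340, 16213, 3581 and 4020 CPM, which was 48.4, 49.1, 16.0 and 13.7 times the RPE-like level. Among those classes they were highest at 1 month, with macrophage-like cells at 13752 and 4215, B-like cells at 10158 and 10570, NK-like cells at 9086 (wild type), and T-like cells at 7123 and 6251. Outside them, an unnamed cluster led by Nppc, Chodl and Erfe (64 and 90 cells, shallow at a median of 1199 UMIs) held 26406 and 22891 CPM, an unnamed cluster led by Ear2, Lst1 and Lyz2 (134 and 104 cells) 17024 and 16764, and the 22 endothelial-like cells of the 1-month knockout 16846. At 2 months endothelial-like cells were highest, at 9166 and 6513 CPM, and mural-like cells, the contractile cells around vessels, held 4695 and 4197. Macrophage-like cells held 4800 and 3964, above mural-like cells in the wild type and below both mural-like and fibroblast-like cells in the knockout. Rod-like cells, the photoreceptors, were next to lowest where measured, at 1164, 1316 and 580 CPM, and melanocyte-like cells of the 2-month knockout held 606. Of these melanocyte-like UMIs 69.6% came from 3 of 32 cells, and without them the class stood at 282 CPM, under the 293 of RPE-like cells. Without their own 3 richest cells, RPE-like cells of that library stood at 253. The median melanocyte-like cell was at 0 CPM and the median RPE-like cell at 108. Neighbours in this order whose intervals overlapped were macrophage-like and mural-like cells in the 2-month wild type, and mural-like, fibroblast-like and macrophage-like cells in the 2-month knockout.

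**Figure D1:**
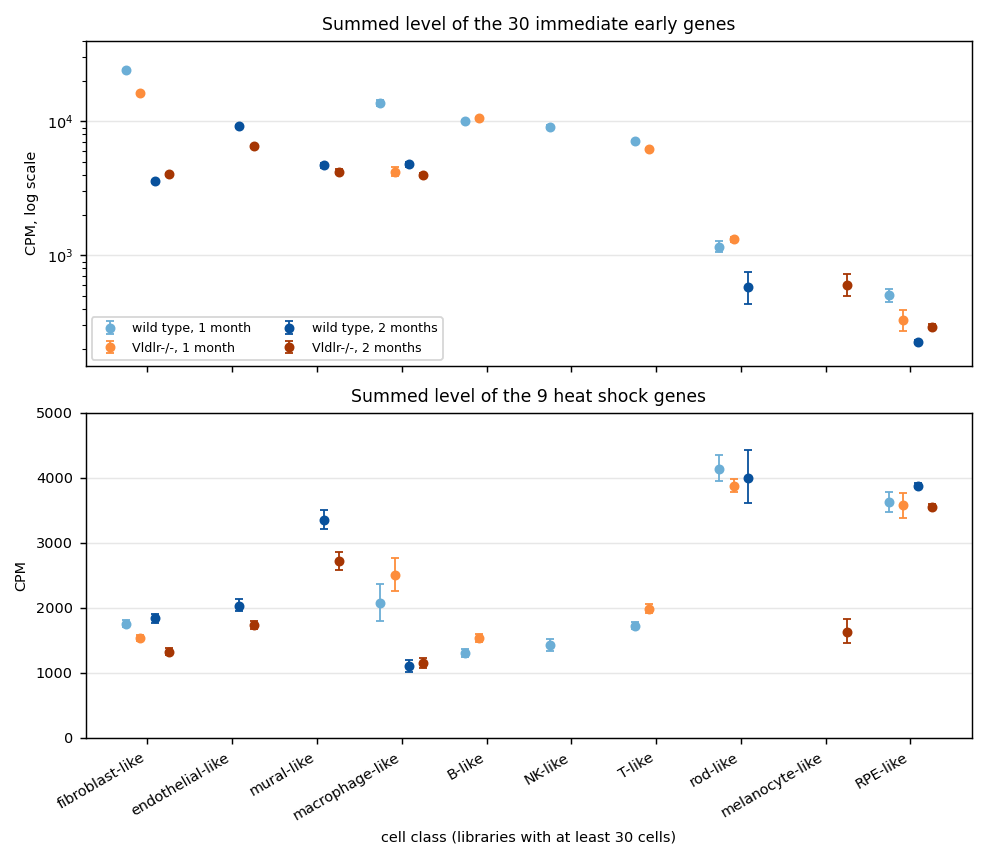
Summed level of the 30 immediate early genes (top, log scale) and the 9 heat shock genes (bottom, linear scale) in CPM of each cell class, 1 point per library with its exact 95% Poisson interval. RPE-like cells lie lowest in the top panel in all 4 libraries and, with rod-like cells, highest in the bottom panel.

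Seen as a share of a library, fibroblast-like cells were 17.7% of the cells and 40.9% of the immediate early UMIs in the 1-month wild type, and 22.3% and 42.5% in the 1-month knockout. Endothelial-like cells were 3.62% of the cells and 31.3% of these UMIs in the 2-month wild type. RPE-like cells of that library were 71.2% of the cells and 13.0% of the UMIs.

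In macrophage-like cells, 3 cells carried 91.6% of the immediate early UMIs of their class in the 1-month wild type and 80.2% in the 1-month knockout. In place of the 13752 and 4215 CPM above, the class stood without them at 1945 and 1483. RPE-like cells of the 1-month wild type also leaned on 3 cells, which held 38.6% of the class's immediate early UMIs, and without them the level was 331 CPM rather than 503. Those 3 cells held 53 UMIs of 6 mast cell markers (1316 CPM, against 3.55 in the other RPE-like cells of the library) and less of the 10 RPE markers (39118 against 111733 CPM). Their part in the class's level is given by the value without them.

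Members of the AP-1 families, Fos and Jun, and Egr1 led the fibroblast-like signal at 1 month, whereas Cebpd (809 and 490 CPM) and Jund led at 2 months. Fos (ENSMUSG00000021250, GRCm38 chromosome 12, 85473890 to 85477273, plus strand) was at 3376, 2057, 91.4 and 328 CPM in fibroblast-like cells and at 29.9, 23.98, 7.18 and 5.57 in RPE-like cells. Junb, a Jun family member, was at 3255, 2277, 249.1 and 402 against 69.7, 32.0, 4.96 and 5.45. Every fibroblast-like value lay above every RPE-like value for both genes. Jund, the member that most cells keep on at rest, was flatter, at 1512, 1425, 670 and 700 against 59.7, 56.0, 57.0 and 85.3 CPM. It was the leading immediate early gene of RPE-like cells in the 1-month knockout (16.9% of the list's UMIs) and in both 2-month libraries (25.4% and 29.1%). Egr1, a zinc finger factor induced by serum, was at 3068, 2117, 215 and 280 in fibroblast-like and 36.5, 7.99, 6.36 and 6.69 in RPE-like cells.

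Among the other factors, Klf2, a regulator of endothelial quiescence that blood flow induces, was at 1086, 665, 168 and 210 CPM in fibroblast-like cells. RPE-like cells had 9.95, 7.99, 1.84 and 2.10. Btg1, an antiproliferative gene high in lymphocytes, was at 610, 397, 132 and 134 in fibroblast-like cells and 39.8, 48.0, 20.1 and 20.2 in RPE-like cells. It was the smallest gap of these 6 genes, which were those with the highest mean level over all cells, with fibroblast-like cells 15.0, 8.07, 6.603 and 6.62 times higher for Btg1 and 110, 81.3, 12.7 and 58.3 times higher for Fos.

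Set against RPE-like cells of the same library, 29, 28, 29 and 28 of the 30 immediate early genes had a higher level in fibroblast-like cells. The exceptions were Fosl1, without a UMI in either class of 3 libraries, Dusp2 in the 1-month knockout and the 2-month wild type, and Myc in the 2-month knockout. Of all genes with at least 30 UMIs over both classes, 71.8%, 71.6%, 65.7% and 67.6% were higher in fibroblast-like cells. Since most members reach 30 UMIs through the fibroblast-like side at 1 month, ratios are given for those with at least 30 UMIs in RPE-like cells themselves, which were 3, 0, 16 and 14 genes. In the 3 libraries that had any, all of these were at least 2-fold higher in fibroblast-like cells, where 9.87%, 33.4% and 29.3% of all genes chosen in that way were. Their median ratio was 5.53, 3.61 and 3.08, against -0.58, 0.47 and 0.40 over all such genes, and the smallest were those of Jund (4.64), Ier3 (1.64) and Ier5 (1.501). Scaling by TMM factors lowered the ratios between these classes by 0.58 to 0.72. Fosl1, with 27 UMIs over all cells, could not be measured anywhere.

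Fibroblast marker UMIs also occurred in RPE-like barcodes. If all of them were free RNA from broken cells, free RNA would make up 1.63%, 1.47%, 1.32% and 0.758% of those barcodes' UMIs. That share of the library's profile would carry 211, 150, 16.4 and 15.0 CPM of immediate early RNA, beside the 503, 330, 224 and 293 measured. Whether these marker UMIs were free RNA was not tested.

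Each class had its own leading genes. In B-like cells Btg1 led with 2313 and 2200 CPM, followed by Junb (1814 and 2100). In T-like cells Junb (1562 and 1252) and Btg1 (1520 and 1407) led, and in NK-like cells of the wild type Junb (2362). Dusp2, a phosphatase of activated lymphocytes, was at 428 and 626 in B-like cells and 144 and 199 in T-like cells, against at most 4.44 in fibroblast-like cells. Endothelial-like cells at 2 months were led by Klf2 (2082 and 1373), with Klf4, its relative, at 901 and 555. Mural-like cells were led by Jund (877 and 795). Macrophage-like cells at 2 months were led by Jun (504 and 528), and Atf3, a stress-induced partner of Jun, had its highest level in those of the 1-month wild type (2251), the value that rests on 3 cells. Rod-like cells were led by Btg1 (216 and 188) at 1 month and by Jund (172) in the 2-month wild type. Ier3, an immediate early gene tied to survival, was at 201, 165 and 150 there, above its 8.29, 7.99 and 22.2 in RPE-like cells of the same libraries.

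**Figure D2:**
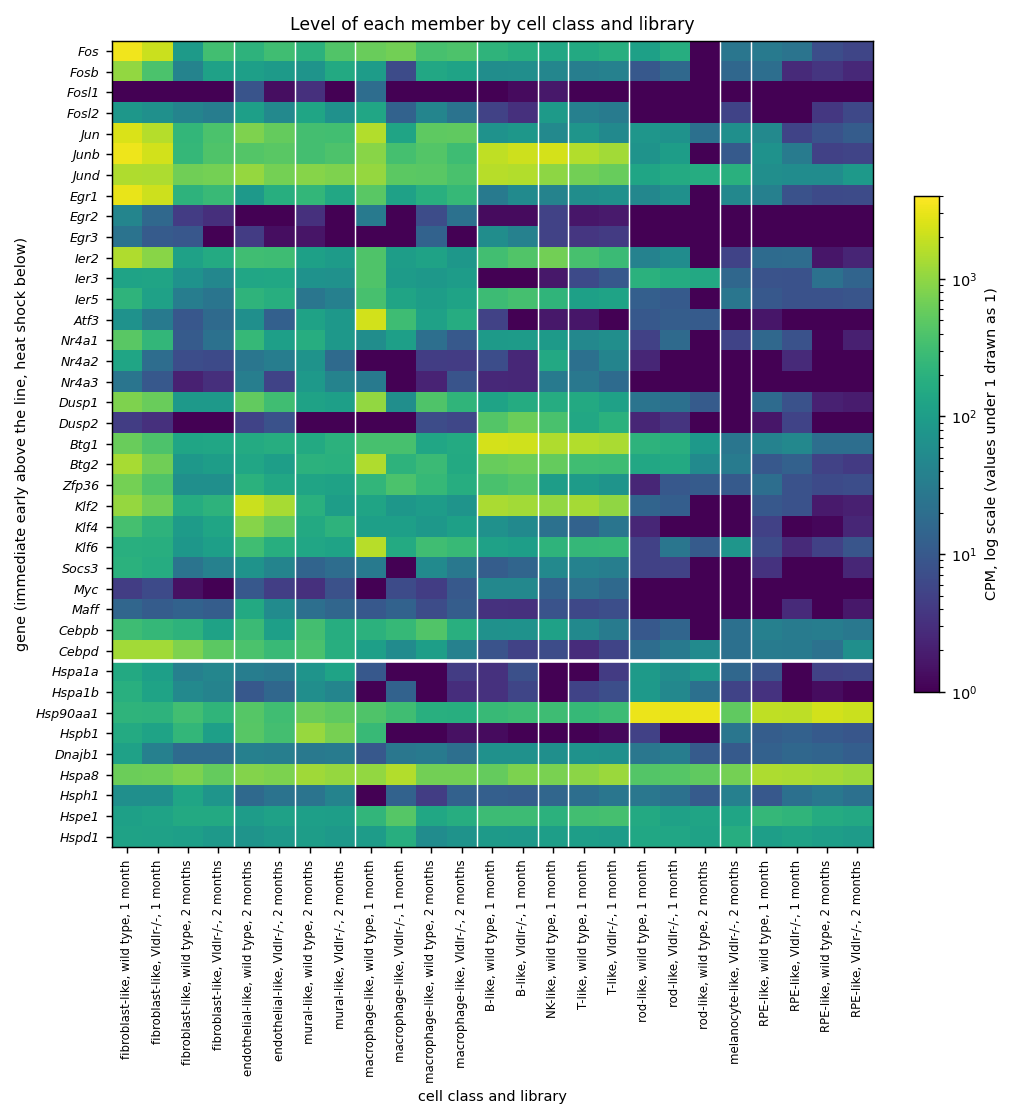
Level of each of the 39 genes in CPM (colour, log scale, values under 1 drawn as 1) in the 25 combinations of cell class and library with at least 30 cells. Fos, Junb and Egr1 are brightest in 1-month fibroblast-like cells, Btg1 in B-like cells, Klf2 in 2-month endothelial-like cells, and Hsp90aa1 in rod-like and RPE-like cells.

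Across these 25 combinations, the log levels nearest in pattern to Fos were those of Egr1 (Pearson r = 0.91), Ier2 (0.88), Fosb (0.87), Junb (0.86), Dusp1 (0.86) and Jun (0.85). Hspa1a and Hspa1b had r = 0.86 with each other, Hsp90aa1 had r = -0.73 with Fos, and Hspa1a had 0.22. The points share libraries, depth and free RNA, so these are descriptions without a p.

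The difference was spread over cells rather than held by a few. With each cell thinned to 1000 UMIs, the median fibroblast-like cell held 24, 17, 3 and 2 immediate early UMIs, and its 10th and 90th percentiles at 1 month were 4 and 46 in the wild type and 3 and 37 in the knockout. The median RPE-like cell held 0 in all 4 libraries, and its 90th percentile was 1 in all 4. Thinning left out 36, 43, 39 and 43 RPE-like and 2, 5, 1 and 0 fibroblast-like cells. Unthinned, the median fibroblast-like cell was at 25369, 17626, 3283 and 2651 CPM and the median RPE-like cell at 136, 0, 128 and 108. After thinning, B-like cells (medians 10 and 11) and T-like cells (7 and 7) lay between at 1 month. Endothelial-like cells at 2 months (8 and 5) lay above fibroblast-like cells of the same libraries (3 and 2). Macrophage-like cells had a median of 1 in both 1-month libraries and 3 and 2 at 2 months, unlike their sums.

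**Figure D3:**
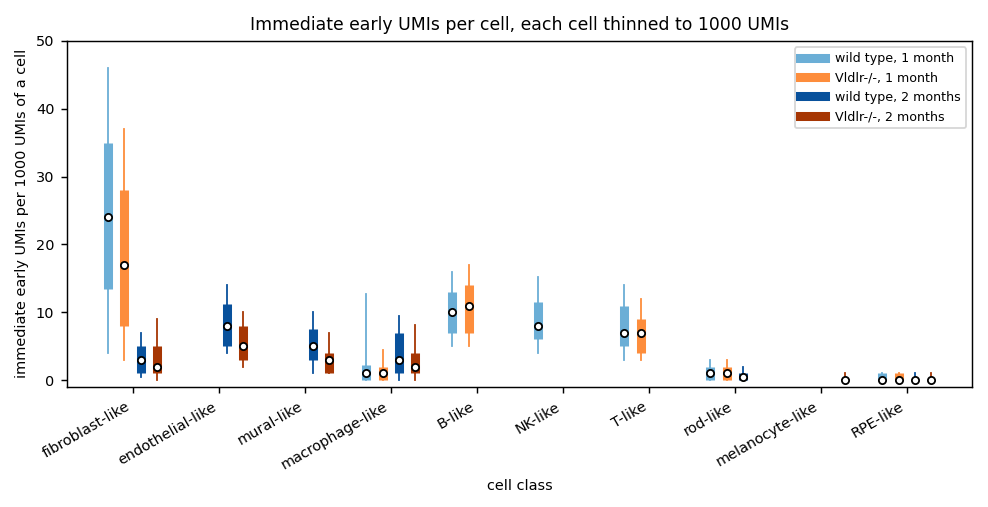
Immediate early UMIs per cell after every cell was thinned to 1000 UMIs. White points are medians, thick bars run from the 25th to the 75th percentile and thin lines from the 10th to the 90th. Fibroblast-like cells at 1 month span 4 to 46 (wild type) and 3 to 37 (knockout), and RPE-like cells stay at 0 to 1.

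Heat shock RNA had another order. The 9 genes summed to 3622 (3472 to 3777), 3578, 3883 and 3557 CPM in RPE-like cells and to 4143, 3882 and 4006 in rod-like cells, the 2 highest classes wherever both were measured. Their intervals overlapped in the 2-month wild type. Fibroblast-like cells held 1754, 1538, 1840 and 1328, and mural-like cells at 2 months 3355 and 2721. Endothelial-like cells (2037 and 1737), B-like cells (1307 and 1535) and T-like cells (1724 and 1991) held less.

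The high place of RPE-like cells in this order came from Hsp90aa1 and Hspa8, and that of rod-like cells from Hsp90aa1. Hsp90aa1 (ENSMUSG00000021270, GRCm38 chromosome 12, 110690605 to 110702728, minus strand), a cytosolic Hsp90, was at 1781, 1772, 2262 and 2078 CPM in RPE-like cells and 223, 210, 325 and 230 in fibroblast-like cells. It was at 3172, 3020 and 3104 in rod-like cells, which was 76.6%, 77.8% and 77.5% of their heat shock UMIs. Hspa8, the constitutive Hsp70 that uncoats clathrin vesicles, was at 1438, 1407, 1292 and 1186 in RPE-like cells against 628, 636, 774 and 568 in fibroblast-like cells, and it led the heat shock genes in every class other than RPE-like and rod-like cells. In rod-like cells Hspa8 was at 441, 451 and 526, below fibroblast-like cells of the same libraries. Hspe1 and Hspd1, the mitochondrial chaperonin pair, were closer. Hspe1 was at 252, 229, 166 and 149 in RPE-like and 111, 122, 154 and 153 in fibroblast-like cells. Hspd1 was at 104, 120, 104 and 95.8 against 119, 116, 107 and 89.1.

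A group of other chaperones went the other way. Hspa1a, Hspa1b, Dnajb1 (an Hsp40 partner), Hsph1 (a nucleotide exchange factor) and Hspb1 (the small heat shock protein Hsp27) together held 46.4, 50.6, 59.0 and 49.0 CPM in RPE-like cells. Fibroblast-like cells held 673, 454, 480 and 288, and mural-like cells at 2 months 1303 and 957, most of it Hspb1 (1119 and 721). Of the 9 genes, 6, 5, 6 and 6 were higher in fibroblast-like than in RPE-like cells, where 71.8%, 71.6%, 65.7% and 67.6% of all genes were (5, 5, 4 and 5 with TMM factors). These counts needed at least 30 UMIs over both classes. At 1 month Hspa1a, Hspa1b, Dnajb1, Hsph1 and Hspb1 together had 28 and 19 UMIs in RPE-like cells. None of them could reach the minimum there without fibroblast-like UMIs, so the 1-month counts are descriptions alone. At least 2-fold lower were 3, 2, 1 and 2 of the 9 genes, where 12.3%, 11.4%, 16.8% and 14.9% of all genes were. With cells thinned to 1000 UMIs the number higher fell to 3 and 1 in the knockouts and 3 in the 2-month wild type, since few members kept enough UMIs. Hsf1, the heat shock factor, was low in both classes, at 6.63, 7.99, 10.8 and 10.2 in RPE-like cells and 18.2, 29.0, 29.5 and 24.2 in fibroblast-like cells.

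RPE-like barcodes differed in nuclear RNA, and immediate early RNA moved with it. Malat1, a nuclear RNA, was at 1121, 1436, 6052 and 14356 CPM in RPE-like and at 65640, 57691, 23938 and 25820.5 in fibroblast-like cells. Barcodes with Malat1 at or above 1000 CPM made up 21.5%, 25.5%, 11.4% and 27.9% of RPE-like cells. They held 1435, 519, 413 and 382 CPM of immediate early RNA, against 318, 283, 175 and 217 in the rest, so the Malat1-rich side was higher in all 4 libraries. Part of the 1435 in the 1-month wild type came from the 3 richest cells described above. Egr1 had 17 UMIs on that side, and 7 in the whole class without those 3 cells. The level of that side without them is not given here. Heat shock sums were 3864, 3821, 3103 and 3160 against 3574, 3518, 4087 and 3901, lower on the Malat1-rich side at 2 months and overlapping in their intervals at 1 month. In rod-like cells Malat1 was at 45839, 46230 and 762, so those of the 2-month wild type were also poor in nuclear RNA. Even the Malat1-rich RPE-like cells stayed under the sums of fibroblast-like cells of their library. The part of nuclear content in the gap between classes was not tested further.

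**Figure D4:**
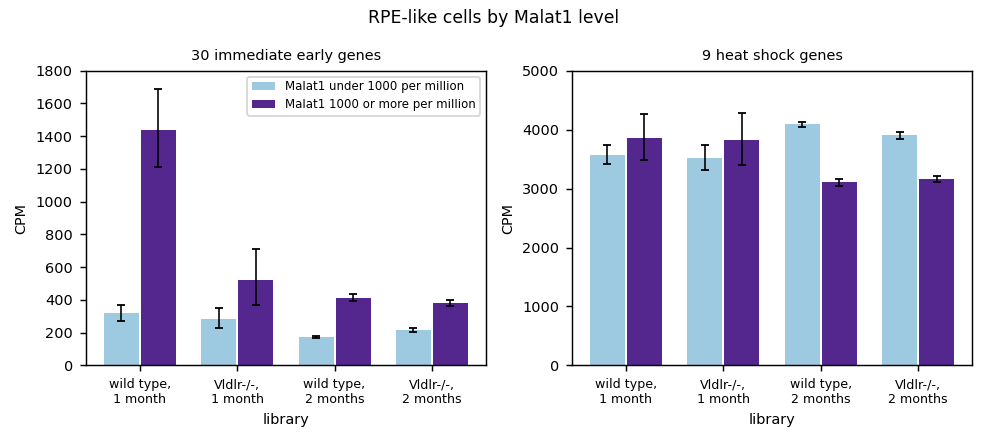
Summed immediate early (left) and heat shock (right) level in CPM in RPE-like cells, split by whether a barcode held under 1000 or at least 1000 CPM of Malat1; whiskers are exact 95% Poisson intervals. Immediate early bars are taller on the Malat1-rich side in all 4 libraries, while heat shock bars are shorter on that side at 2 months.

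Between genotypes, the immediate early genes were lower in knockout fibroblast-like cells at 1 month across most families. Of 27 measured, 26 were lower and 7 at least 2-fold lower, where 46.0% of all genes were lower and 1.63% at least 2-fold lower. The median ratio was -0.69 against 0.03 over all genes. Ier3, at 123 and 125 CPM, was the 1 not lower. The summed ratio was -0.59 (-0.60 to -0.57).

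The widest ratios were those of Nr4a, Egr and Fos family members. Nr4a2, a nuclear receptor of the Nr4a family, went from 133 CPM in the wild-type library to 19.5 in the knockout library, a ratio of -2.76. Fosb was at 1057 and 384 (-1.46) and Egr2 at 44.0 and 16.6 (-1.39). Nr4a3 was at 24.9 and 9.91 (-1.31), Atf3 at 69.3 and 29.4 (-1.23) and Egr3 at 23.5 and 10.97 (-1.09). Each of these was thus over 2-fold lower in the knockout library, as was Btg2, a p53 target that restrains proliferation, at 1363 and 659 (-1.05). At the other end, Jund (-0.09), Klf6 (-0.03) and Cebpd (-0.03), an inflammatory C/EBP factor at 1287 and 1264, were nearly level. Of the heat shock genes, 3 of 9 were higher, where 54.0% of all genes were, and 1 was at least 2-fold lower, Dnajb1, at 116 and 37.5 (-1.62). The median of the 9 was -0.09, and 1 of 9 was higher when TMM factors set the scale.

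The 1-month gap was seen in each fibroblast-like cluster with over 20 cells per library. In the largest, led by Alkal2, Pappa2, Lum and Ptgs2 (209 wild-type and 300 knockout cells), immediate early sums were 29236 and 22409 CPM, and 23 of 27 genes were lower (42.5% of all genes) and 4 at least 2-fold lower (1.35% of all genes). In the cluster led by Myoc, Apod and Ccn2 (36 and 45 cells) they were 16468 and 8381, with 21 of 22 lower (46.8% of all genes). In the cluster led by Sfrp2, Pi16 and Angptl7 (28 and 58 cells) they were 5720 and 4108, with 15 of 20 lower (48.6%). The ratios of the sums were -0.38, -0.97 and -0.48, so the size of the gap varied with the cluster. Both genotypes were read by the same software version at this age. T cell markers in fibroblast-like cells stood at 92.4 and 19.1 CPM and B cell markers at 61.3 and 25.8, and Xist at 536 and 1002 and Ddx3y at 61.3 and 25.1. With the free RNA estimated from such markers subtracted, the median ratio of the immediate early genes was -0.68 rather than -0.69. The part of sex and of the other cell types' markers in the gap was not tested.

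At 2 months Fos, Fosb, Jun and Junb were higher in knockout fibroblast-like cells, while Jund was nearly level (670 and 700 CPM) and Fosl2 lower (42.5 and 33.7). Of 23 immediate early genes measured, 16 were higher in the knockout, where 51.1% of all genes were, and 3 were at least 2-fold higher, where 2.42% were. The median was 0.32 against 0.01 over all genes, and the summed ratio 0.17 (0.12 to 0.22). The median cell went the other way, with 3283 CPM of immediate early RNA in the wild type and 2651 in the knockout. After thinning, the median cell held 3 and 2 of these UMIs. The mean over cells, at 3610 and 3914 CPM, was higher in the knockout like the sum. The higher knockout sum was thus not seen in the typical cell. Fos was at 91.4 and 328 CPM (1.84), Fosb at 40.3 and 114 (1.49) and Nr4a1, the founding member of its receptor family, at 10.8 and 22.1 (1.00). The C/EBP factors were on the other side, with Cebpd at 809 and 490 (-0.72) and Cebpb at 210 and 118 (-0.84). Heat shock genes were lower in 7 of 9, where 48.9% of all genes were (1 rather than 2 was higher with TMM factors), with Hspb1 at 243 and 107 (-1.18) the 1 at least 2-fold lower (1.35% of all genes), and the sum was lower by a ratio of -0.47. In the cluster that held most of these cells (115 and 145), led by Ror1, Rad51b and Lsamp, Fos was at 94.8 and 325 and Fosb at 41.4 and 114. Macrophage markers in fibroblast-like cells were at 318 and 575 CPM at this age, and their part was not tested.

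**Figure D5:**
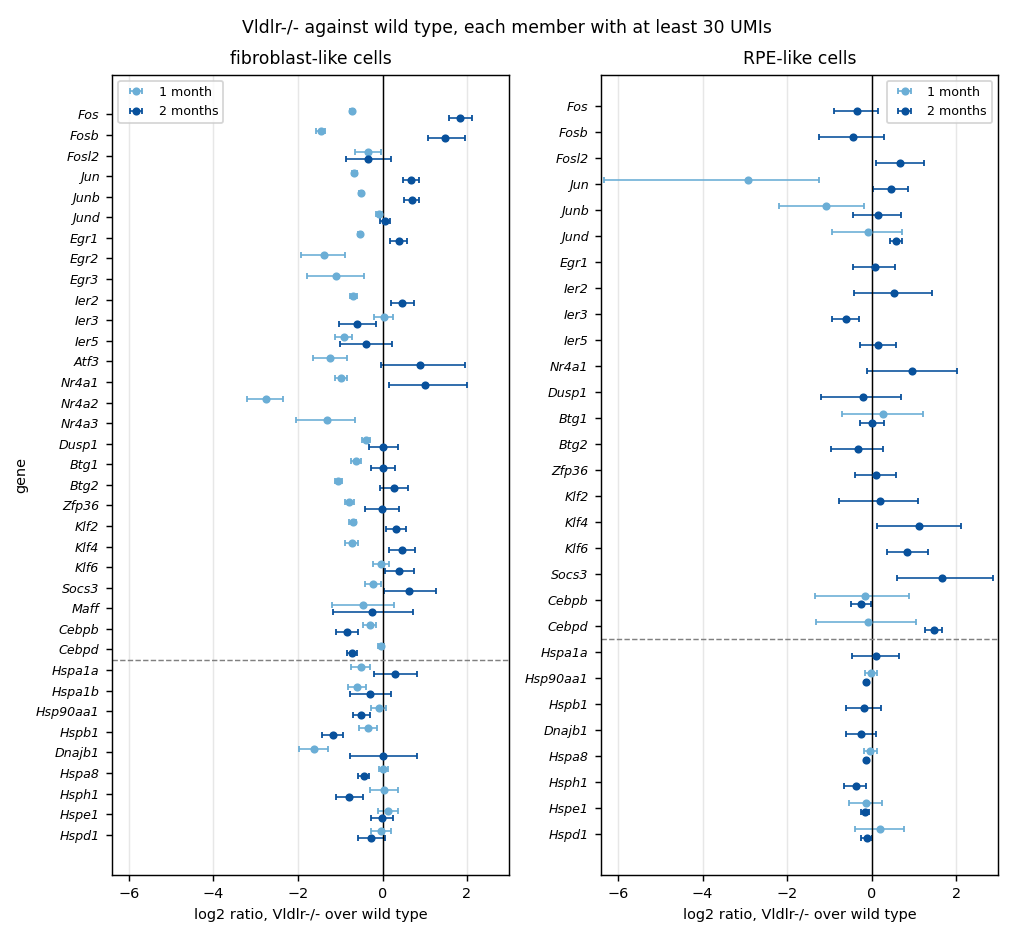
Log2 ratio of Vldlr-/- to wild type for each gene with at least 30 UMIs over the 2 libraries, in fibroblast-like (left) and RPE-like cells (right), with exact 95% intervals for counting error; genes below the dashed line are heat shock genes. In fibroblast-like cells the 1-month points lie left of 0 for 26 of 27 immediate early genes and the 2-month points of Fos and Fosb lie right of it.

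In RPE-like cells at 1 month only 6 immediate early genes reached 30 UMIs, of which 5 were lower in the knockout, where 49.8% of all genes were, and 2 at least 2-fold lower, where 2.74% were. Jun was at 49.8 and 5.33 CPM (30 and 2 UMIs, -2.92) and Junb at 69.7 and 32.0 (-1.08). The summed ratio was -0.60 (-0.92 to -0.30), but without the 3 richest cells of each library it was -0.14 (-0.50 to 0.20), and 2 of 3 genes were then higher (52.1% of all genes). Jun then stood at 12 and 2 UMIs. Among heat shock genes 3 of 4 measured were lower, with a median of -0.02.

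At 2 months, with most RPE-like cells, 15 of 21 immediate early genes were higher in the knockout, where 59.3% of all genes were higher, and 3 were at least 2-fold higher, where 3.27% were. The median was 0.16 against 0.07 over all genes. Cebpd was at 22.6 and 62.4 CPM (1.47), Socs3, a brake on cytokine signalling, at 0.763 and 2.48 (12 and 20 UMIs, 1.68), and Klf4 at 1.14 and 2.48 (1.11). Jund was at 57.0 and 85.3 (0.58). Cebpd was higher on both sides of the Malat1 split, at 18.3 and 44.6 in poor and 39.01 and 83.0 in rich barcodes. Jund was higher on the poor side (43.1 and 64.2) and level on the rich side (110 and 110). Red blood cell markers in RPE-like cells stood at 436 and 27.6 CPM in these libraries, and their part in the count was not tested.

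The count for RPE-like cells at 2 months differed when barcodes were split by Malat1. The Malat1-rich share was 11.4% in the wild type and 27.9% in the knockout. Within that side 5 of 16 immediate early genes were higher, where 49.5% of all genes were, with a summed ratio of -0.11 (-0.22 to -0.00153), and within the Malat1-poor barcodes 6 of 12 were higher, where 44.0% of all genes were, with a summed ratio of 0.31 (0.19 to 0.42). The pooled summed ratio was 0.39 (0.31 to 0.46). Part of it rested on few cells, since 3 cells held 7.34% of these UMIs in the wild type and 17.5% in the knockout. Without them the pooled sums were 209 and 253 CPM rather than 224 and 293. Fewer genes could be measured within each side, so these counts and the 15 of 21 are not like for like. The part of nuclear content in the 15 of 21 was not tested. Heat shock genes were higher in 1 of 8, where again 59.3% of all genes were, with a median of -0.14, and 0 of 8 were higher in the poor and 5 of 8 in the rich barcodes, against the same 44.0% and 49.5%.

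Elsewhere the immediate early genes were lower in 19 of 25 for knockout endothelial-like cells at 2 months, where 44.5% of all genes were lower. Of these 6 were at least 2-fold lower, where 2.05% of all genes were, and 1 was at least 2-fold higher (3.15%). Nr4a3, at 34.5 and 5.36 CPM, Atf3 at 61.4 and 12.7 and Maff, a small Maf factor, at 156 and 54.9 were among the lower genes, and Egr1, at 88.4 and 181, was the higher 1. The median was -0.55 against 0.05 over all genes. Markers of other cell types differed between the same endothelial-like cells, with mural markers at 4239 and 2568 CPM, fibroblast markers at 467 and 1217, and red blood cell markers at 5.39 and 535, and their part was not tested. In mural-like cells 17 of 23 were lower (46.7% of all genes), 3 at least 2-fold (2.58%) and 2 at least 2-fold higher (2.31%), and these 2 were Fos (207 and 428) and Fosb (73.7 and 156). In that class 3 cells held 22.8% and 32.0% of the immediate early UMIs. Without them its sums were 4282 and 3667 CPM rather than 4695 and 4197. Macrophage-like cells at 2 months had 13 of 21 lower (47.7% of all genes), 2 at least 2-fold (3.27%), Cebpb and Cebpd. RPE markers stood at 5755 and 2414 CPM in the mural-like and at 2702 and 509 in the macrophage-like cells of these libraries, and their part was not tested.

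At 1 month macrophage-like cells had 12 of 15 lower (43.7% of all genes) and 11 at least 2-fold lower (9.17%), but without the 3 richest cells of each library 1 gene alone could be measured and the summed ratio was -0.39 (-0.77 to -0.01) rather than -1.71. Rod-like cells had 11 of 15 higher (54.9% of all genes), 2 at least 2-fold (5.40%), with a median of 0.47. B-like cells had 14 of 21 and T-like cells 10 of 24 higher, where 49.1% and 50.5% of all genes were. In neither class was any of them at least 2-fold apart, where 1.16% of all genes were at least 2-fold higher in each, and 1.16% (B-like) and 1.47% (T-like) at least 2-fold lower. Whether the genotype gap differed between these classes and fibroblast-like cells was not tested.

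Comparisons of age share a library with those of genotype, and all 2-month libraries were read with another software version (Cell Ranger 7.0.1 rather than 6.0.2), so age and counting cannot be told apart. In fibroblast-like cells 27 of 27 immediate early genes were lower at 2 months in the wild type and 26 of 27 in the knockout, where 52.7% and 54.4% of all genes were. Of these 22 and 22 were at least 2-fold lower, where 8.44% and 6.94% of all genes were, and the sums were 6.80 and 4.03 times lower. The cells also fell into different clusters at the 2 ages, those led by Alkal2 at 1 month and by Ror1 at 2 months. In RPE-like cells 16 of 18 were lower in the wild type and 8 of 14 in the knockout (45.7% and 48.0% of all genes), with 11 and 4 at least 2-fold lower (6.57% and 6.56%). Without the 3 richest cells of each library, the wild-type sums at 1 and 2 months were 331 and 209 CPM rather than 503 and 224. The knockout sums were then 299 and 253 rather than 330 and 293. The median RPE-like cell was at 136 and 128 CPM in the wild type and at 0 and 108 in the knockout, younger age first. Heat shock sums were closer, with ratios of 2 months to 1 month of 0.07 and -0.21 in fibroblast-like and 0.10 and -0.01 in RPE-like cells.

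Of 43 further immediate early genes listed, 31 of 39 measured were lower in knockout fibroblast-like cells at 1 month (46.0% of all genes) and 5 at least 2-fold lower (1.63%), with Arc at 20.9 and 7.43 CPM (-1.47), Ccn1, a matricellular target of YAP, at 248 and 107 (-1.21), and Cdkn1a, a cell cycle inhibitor, with the highest ratio at 52.8 and 90.2 (0.77). At 2 months 17 of 36 were higher (51.1% of all genes), led by Gadd45a at 10.1 and 24.7 (1.25), with Errfi1 lowest at 141 and 61.9 (-1.19). In RPE-like cells 12 of 15 were higher in the knockout at 1 month (50.2% of all genes), led by the Notch target Hes1 at 41.5 and 136 (1.70), and 24 of 36 at 2 months (59.3% of all genes), led by Gadd45b at 0.826 and 2.85 (1.76) and Ccn1 at 8.45 and 27.1 (1.68). The clock gene Per1 was lowest at 2 months, at 43.3 and 24.3 (-0.83). Of 35 further chaperone genes, 13 of 28 and 13 of 35 were higher in RPE-like cells and 13 of 34 and 11 of 33 in fibroblast-like cells, at 1 and 2 months, where 50.2%, 59.3%, 54.0% and 51.1% of all genes were. None of them was at least 2-fold apart in these 4 comparisons, where 3.51%, 3.27%, 1.86% and 2.42% of all genes were at least 2-fold higher and 2.74%, 1.08%, 1.63% and 1.35% at least 2-fold lower. Cryab, a small heat shock protein, was at 1267 and 655 in RPE-like cells at 1 month (-0.95). Of 18 upstream regulators, 2 of 5, 10 of 17, 9 of 17 and 6 of 17 were higher in the same order, against the same shares of all genes, with 0 at least 2-fold apart.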

How the data were processed

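The deposited values were UMI counts per gene and barcode, raw whole numbers, and the gene table held 32285 rows. Per the file headers, the authors used Cell Ranger 6.0.2 for the 1-month and 7.0.1 for the 2-month libraries. The submitters' processing notes list other entries, mm9, Seurat 4.0 and Cell Ranger 3.0. The sources used here do not say if intron reads were counted. Coordinates are from GENCODE M21 (GRCm38), with all 39 genes matched, and promoters from RefSeq.

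A barcode needed 300 genes or more and a mitochondrial UMI share of 30% or less. Scrublet marked 26 of 6555 (0.397%). Whether it missed doublets was not tested, and doublets are likely to remain. The 6529 cells left were clustered on 2000 variable genes without the 39 members, 30 principal components, 15 neighbours and Leiden resolution 1.0 (scanpy 1.11.5, leidenalg 0.10.2, igraph 0.11.9) into 31 clusters, named from marker lists. A cluster led by melanocyte genes was called RPE-like where its level of the RPE list asked for it, a rule written after the clusters were seen.

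Counts were summed per class and library and scaled to 1000000 (CPM). Ratios added 0.5 counts and needed at least 30 UMIs over the 2 libraries. Levels have exact Poisson and ratios exact binomial 95% intervals, for counting error only. The labels carry no replicates, so no test was run, and the calculation was checked on simulated counts. Tools were pandas 2.3.3, scipy 1.17.1, matplotlib 3.10.9 and numpy 2.4.6 under Python 3.11.15, with edgeR 4.0.16 for TMM factors alone.

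The members and lists were chosen with earlier results of these data known. Genes given in every library were the 6 immediate early and 4 heat shock genes with the highest mean level, and up to 6 genes at least 2-fold apart per class and age for RPE-like and fibroblast-like cells. Other lists gave at most 2 genes per direction. Further genes were named after their values were seen. Alternatives were stricter barcode filters, other minimum UMIs, pseudocount, TMM scaling, means over cells, thinning, free RNA subtraction, other clusterings, higher doublet removal, and leaving out Malat1-poor barcodes.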

Additional observations from a re-analysis of the deposited data

Results flagged for a closer look

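For 6 genes the ratio of knockout to wild type was on opposite sides of 0 at 1 and 2 months with counting intervals that did not overlap, and the difference between ages was not tested against any spread between animals. In fibroblast-like cells these were Fos (-0.71 at 1 month, 1.84 at 2 months), Fosb (-1.46 and 1.49) and Nr4a1 (-0.98 and 1.00). In RPE-like cells it was Jun (-2.92 and 0.45), whose 1-month value rests on 30 and 2 UMIs. In macrophage-like cells they were Egr1 (-2.02 and 0.43) and Atf3 (-2.88 and 0.57), whose 1-month values rest on 3 cells per library.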

How the results depend on the processing

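The 16 counts of higher members were recomputed under up to 17 alternatives (not all could be applied to every count), 3 of them (89 doublets removed, without the 3 richest cells, and the largest fibroblast-like cluster) chosen after seeing the data. Of the 265 values 222 stayed within 1.5 times the reported count and 43 did not; the median ratio changed sign in 12. The cause was not tested beyond the smaller number of genes measured under thinning and minimum-UMI changes. Depth limits RPE-like cells at 1 month, where 6 immediate early genes could be measured. No paired analysis was possible because each group is 1 library and the labels carry no replicate numbers.

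Immediate early genes higher in knockout RPE-like cells at 1 month (reported 1) were 2 with at most 15% mitochondrial UMIs, 7 with at least 1 UMI, 3 by the mean over cells, 0 with thinned cells, 2 with members kept for clustering, 2 with 89 doublets removed and 2 without the 3 richest cells. At 2 months (reported 15) they were 3 with thinned cells and 5 without barcodes under 1000 CPM of Malat1. In fibroblast-like cells at 1 month (reported 1) they were 2 with at least 1 UMI, 0 with TMM factors, 3 by the mean over cells, 4 with thinned cells, 3 at Leiden resolution 0.5, 2 without the 3 richest cells and 4 in the largest cluster, and at 2 months (reported 16) 8 with thinned cells. A minimum of 30 UMIs over both classes can be reached through fibroblast-like cells alone. With it, 71.8%, 71.6%, 65.7% and 67.6% of all genes were higher in fibroblast-like than in RPE-like cells. Immediate early genes higher in this way numbered 27, 26, 22 and 23. At 2 months they were 8 (wild type) and 6 (knockout) with thinned cells, which was all that could be measured.

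Heat shock genes higher in knockout RPE-like cells at 1 month (reported 1) were 2 with at least 1000 genes per barcode, 4 with at least 1 UMI, 2 by the mean over cells, 3 with thinned cells, 2 without Malat1-poor barcodes and 2 without the 3 richest cells. At 2 months (reported 1) they were 0 with thinned cells, 5 without Malat1-poor barcodes and 0 without the 3 richest cells. In fibroblast-like cells at 1 month (reported 3) they were 1 with TMM factors and 1 in the largest cluster. At 2 months (reported 2) they were 1 with at most 15% mitochondrial UMIs, at least 100 UMIs, a pseudocount of 1, TMM factors, the mean over cells, free RNA subtracted, Leiden resolution 2.0, and 33 or 89 doublets removed, and 0 with thinned cells. Against RPE-like cells they were 3 (1-month knockout), 3 (2-month wild type) and 1 (2-month knockout) with thinned cells.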
